A study of Mus musculus with 6 samples.

Results

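The genes described here are 10 brakes on the cell cycle that FoxO transcription factors are known to regulate, read in thioglycollate-elicited peritoneal macrophages of FOXO3 KO and WT mice. They were chosen by name (Cdkn1a, Cdkn1b, Cdkn2c, Ccng1, Ccng2, Rbl2, Gadd45a, Gadd45b, Gadd45g and Btg1), and all 10 were found by symbol among the 54648 gene symbols of the deposited table. The study holds 3 WT and 3 FOXO3 KO libraries of C57BL/6 mice aged 6 to 8 weeks on standard chow. Per the paper's methods, FOXO3 KO mice were homozygous, both genotypes were littermates of either sex, and all mice received thioglycollate in the abdomen. Injected thioglycollate causes a sterile inflammation, so the recovered cells are largely macrophages newly made from blood monocytes, and no sort of the cells is described. No Cre driver is described either. Values are CPM (reads of a gene scaled to a common library size with TMM factors, a normalization that corrects for a few genes taking many reads). Library totals were between 28083572 and 36424331 counts, and each of the 10 genes passed the filter on low counts in every fit.

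The libraries were checked against their labels first. Foxo3 was at 117, 107 and 73.1 CPM in WT 1, 2 and 3 and at 4.71 and 4.29 CPM in FOXO3 KO 1 and 3. The library labelled FOXO3 KO 2 had 104 CPM, within the WT range, so the fold changes of the 10 genes are given with and without it. Macrophage markers were high in all libraries, the 12 together reaching between 15110 and 19860 CPM. Xist, which marks female cells, was at 871 CPM in WT 3 and at 1130 CPM in FOXO3 KO 3, and at no more than 0.177 CPM in the other 4 libraries. The Y-linked genes Ddx3y, Eif2s3y, Kdm5d and Uty were at 38.6 to 123 CPM in those 4 libraries and at 0.87 to 2.52 CPM in FOXO3 KO 3, but at 9.17 to 23.7 CPM in WT 3, which thus carried both Xist and Y-linked RNA. Whether a library was mislabelled or holds RNA of more than 1 animal was not tested, and all 6 are used as labelled unless a value is said to leave one out. WT 3 also had the most B cell marker RNA. The 8 B cell markers summed to 823, 444 and 3571 CPM in WT 1, 2 and 3 and to 199, 389 and 772 CPM in FOXO3 KO 1, 2 and 3, and none of them was at 0 in all libraries. The 6 mast cell markers summed to 221, 126 and 776 CPM in WT 1, 2 and 3. In FOXO3 KO 1, 2 and 3 they summed to 202, 99.6 and 291 CPM. Each T cell marker was highest in WT 3 except Il7r, which was lowest there. In RNA from mixed cells, fewer cells of a type and less RNA per cell cannot be told apart.

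A cell divides when cyclins activate cyclin-dependent kinases (CDKs), which phosphorylate RB-family pocket proteins and free E2F factors to switch on DNA replication genes. CDK inhibitors block the kinases, the pocket protein p130 keeps resting cells out of the cycle, and GADD45, cyclin G and BTG proteins slow division after stress or differentiation. FoxO factors, when growth factor signalling through AKT is low, enter the nucleus and raise the transcription of several of these brakes, of which Cdkn1b, Ccng2, Rbl2 and Gadd45a are textbook targets.

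FoxO factors bind the element GTAAACA, and AAACAA occurs in the longer form of that element and in forms of the insulin response element. Both were searched on both strands (TGTTTAC and TTGTTT on the other strand) in the 250 bases before each start site that RefSeq lists on GRCm38.p6. The table held 12 such windows for all 10 genes. AAACAA was found for 3 of the 10 genes (Cdkn1b, Ccng2 and Btg1), and in 18.3% of all 32851 windows. GTAAACA was found for Btg1 alone, and in 3.17% of all windows. These shares are over windows, 12 of which belong to the 10 genes, and no share over genes is given. The windows of these 3 genes are shown because they hold the matches, which are in capitals. They are read 5′ to 3′ along the gene. The Cdkn1b window is at chr6:134920151-134920400 on the plus strand, the Ccng2 window at chr5:93267323-93267572 on the plus strand, and the Btg1 window at chr10:96616751-96617000 on the plus strand.
Cdkn1b: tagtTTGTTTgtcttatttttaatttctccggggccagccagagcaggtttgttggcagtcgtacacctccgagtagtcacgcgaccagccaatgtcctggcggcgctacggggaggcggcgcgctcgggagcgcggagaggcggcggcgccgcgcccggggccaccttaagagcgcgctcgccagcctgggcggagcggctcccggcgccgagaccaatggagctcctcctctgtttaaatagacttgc
Ccng2: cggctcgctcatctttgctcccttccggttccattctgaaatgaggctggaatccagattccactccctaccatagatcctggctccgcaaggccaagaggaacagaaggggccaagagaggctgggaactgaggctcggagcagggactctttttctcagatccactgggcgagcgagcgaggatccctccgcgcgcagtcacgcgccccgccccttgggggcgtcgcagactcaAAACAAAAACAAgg
Btg1: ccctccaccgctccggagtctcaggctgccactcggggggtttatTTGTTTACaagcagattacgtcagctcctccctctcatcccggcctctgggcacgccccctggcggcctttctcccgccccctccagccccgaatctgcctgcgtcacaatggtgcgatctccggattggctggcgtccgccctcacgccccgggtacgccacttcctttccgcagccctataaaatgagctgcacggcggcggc
The match in Cdkn1b began 246 bases before the start site, on the other strand. Ccng2 held AAACAA on the gene's own strand in 2 adjoining copies, from 14 and from 8 bases before the start. GENCODE M21 places the first base of Ccng2 upstream of this window, at position 93267257 of chromosome 5. In Btg1 the GTAAACA match, 204 bases before the start, overlapped the AAACAA match 205 bases before it. No match says only that these letters are not in the window, and a match does not show binding.

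Of the CDK inhibitors, Cdkn1b was lower in every FOXO3 KO library than in every WT library. It encodes p27, which holds cyclin E-CDK2 inactive in resting cells, and lies at chr6:134920401-134925513 (GRCm38, plus strand). Cdkn1b was at 111, 104 and 152 CPM in WT 1, 2 and 3 and at 56.9, 91.5 and 70.6 CPM in FOXO3 KO 1, 2 and 3. FOXO3 KO 2, whose Foxo3 was not reduced, lay closest to WT, and WT 3 was the highest. The group means were 122 ± 26.1 CPM in WT and 73.0 ± 17.4 CPM in FOXO3 KO (SD, n = 3 each). The log2 fold change was -0.75 (standard error 0.23, 95% confidence interval -1.29 to -0.20), which places FOXO3 KO at 59.6% of WT. The unadjusted p of edgeR's quasi-likelihood test was 0.0155, and adjusted over all 15608 genes tested it was 0.733. Without FOXO3 KO 2 the log2 fold change was -0.94 (standard error 0.22, unadjusted p = 0.00774, adjusted p = 0.848 by the same edgeR test), or 52.1% of WT. Without WT 3, the library with the most B cell RNA, it was -0.55 (standard error 0.19, unadjusted p = 0.0243 and adjusted p = 0.537 by edgeR). Among libraries of like Xist level, where WT 3 with its Y-linked RNA is the sole counterpart of FOXO3 KO 3, FOXO3 KO 1 was lower than the mean of WT 1 and 2 by a log2 difference of -0.92, FOXO3 KO 3 was lower than WT 3 by -1.11, and FOXO3 KO 2 differed from the mean of WT 1 and 2 by -0.23. An exact permutation test of the 6 libraries gave p = 0.10 (two-sided), the smallest that 3 against 3 allows.

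Cdkn1a, which encodes p21, the CDK inhibitor induced by p53, did not follow Cdkn1b. It was at 82.8, 98.4 and 43.4 CPM in WT 1, 2 and 3 and at 84.9, 92.6 and 71.4 CPM in FOXO3 KO 1, 2 and 3. The groups overlapped, and WT 3 was the lowest library. Its log2 fold change was 0.15 (95% confidence interval -0.58 to 0.87), 0.063 without FOXO3 KO 2 and -0.12 without WT 3. Among libraries of like Xist level, FOXO3 KO 3 was higher than WT 3 by 0.72 (log2), while FOXO3 KO 1 and 2 differed from the mean of WT 1 and 2 by -0.093 and 0.031. Cdkn2c, which encodes p18, an inhibitor of CDK4 and CDK6, was at 12.9, 13.2 and 13.1 CPM in WT 1, 2 and 3 and at 12.3, 11.8 and 11.9 CPM in FOXO3 KO 1, 2 and 3. These groups did not overlap, but the difference was small, with a log2 fold change of -0.12 (95% confidence interval -0.40 to 0.16), and -0.11 without FOXO3 KO 2. The adjusted p of edgeR's quasi-likelihood test was 0.918 for Cdkn1a and 0.863 for Cdkn2c. The intervals leave room for a change of Cdkn1a in either direction.

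**Figure D1:**
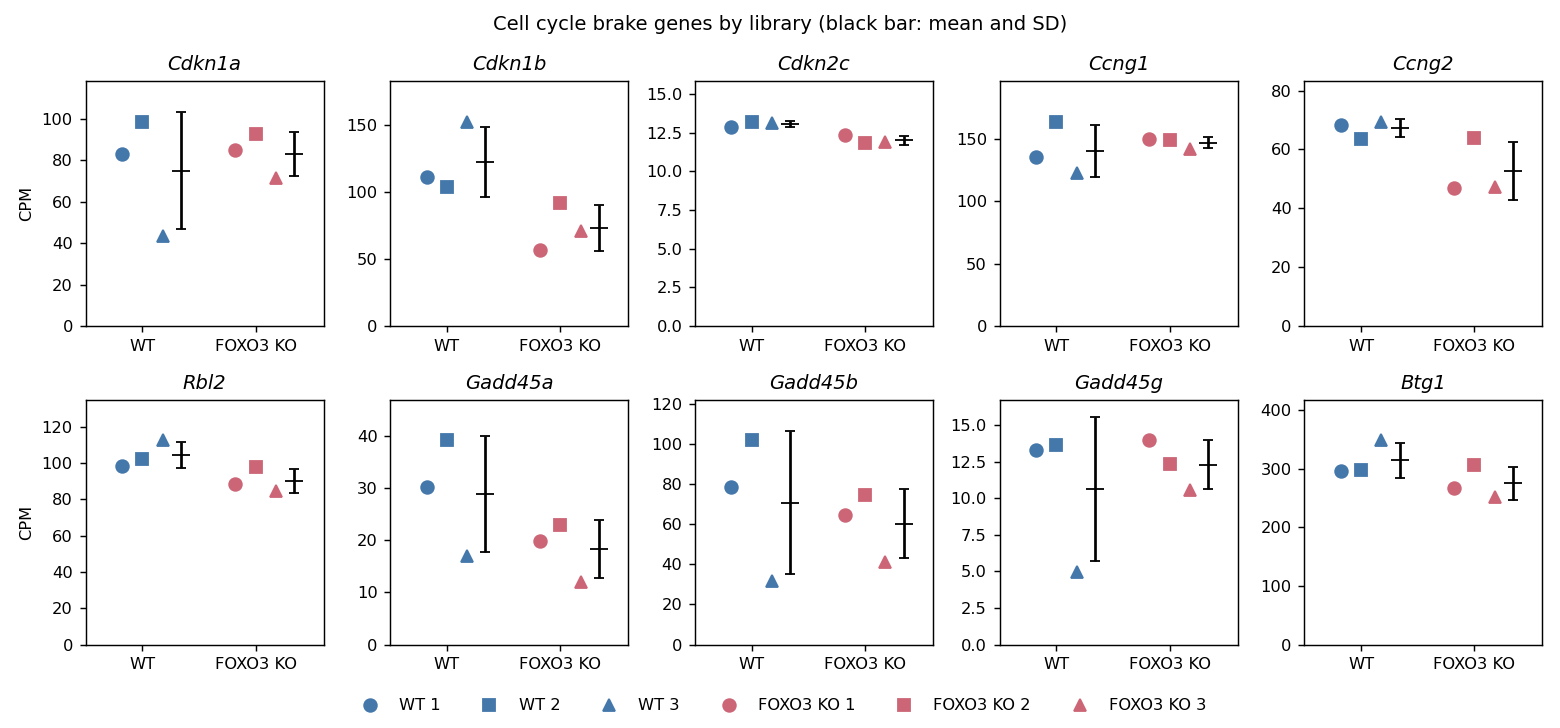
Expression of the 10 genes in each library, in CPM on axes that start at 0, with WT libraries in blue and FOXO3 KO libraries in red. The symbol gives the replicate (circle 1, square 2, triangle 3), and the black bar gives the group mean and SD (n = 3). Cdkn1b, Cdkn2c and Rbl2 have no overlap between groups, and Ccng2 splits FOXO3 KO 1 and 3 (46.7 and 47.1 CPM) from the other 4 libraries.

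The 2 G-type cyclins parted from each other. Ccng2 encodes cyclin G2, an unusual cyclin that rises when cells leave the cycle. It lies at chr5:93267257-93276231 on the plus strand. It was at 68.4, 63.7 and 69.4 CPM in WT 1, 2 and 3 and at 46.7, 63.9 and 47.1 CPM in FOXO3 KO 1, 2 and 3. FOXO3 KO 1 and 3, the libraries with little Foxo3, thus lay below every WT library, while FOXO3 KO 2 lay within the WT range. Over all libraries the log2 fold change was -0.35 (standard error 0.15, unadjusted p = 0.0507, adjusted p = 0.839 by edgeR's quasi-likelihood test). Without FOXO3 KO 2 it was -0.52 (standard error 0.11, 95% confidence interval -0.79 to -0.24), or 70.0% of WT, with an unadjusted p of 0.00475 and an adjusted p of 0.793 by the same edgeR test. DESeq2 on the same 5 libraries gave an adjusted p of 0.0056 for Ccng2, which passes 0.05 while its fold change stays under the limit of 1.5. In that fit 0.228% of the 16217 genes tested passed an adjusted p of 0.05 with a lower level in FOXO3 KO. The pass depended on the test and the libraries. The adjusted p of Ccng2 was 0.802 by edgeR's likelihood ratio test on the same 5 libraries and 0.569 by DESeq2 on all 6 libraries. Without WT 3 and FOXO3 KO 2 the log2 fold change of Ccng2 was -0.49, and between libraries of like Xist level it was -0.50 for FOXO3 KO 1 and -0.56 for FOXO3 KO 3. FOXO3 KO 2 differed from the mean of WT 1 and 2 by -0.046.

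Ccng1 encodes cyclin G1, a p53 target that takes part in the feedback on p53. It was at 135, 164 and 123 CPM in WT 1, 2 and 3 and at 150, 149 and 142 CPM in FOXO3 KO 1, 2 and 3, so that all FOXO3 KO libraries lay within the WT range. The log2 fold change was 0.065 (95% confidence interval -0.25 to 0.38), 0.055 without FOXO3 KO 2 and -0.012 without WT 3. FOXO3 KO 3 was higher than WT 3 by 0.21 (log2), and FOXO3 KO 1 and 2 differed from the mean of WT 1 and 2 by 0.0043 and -0.0021.

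Rbl2 encodes p130, the pocket protein that with E2F4 and the MuvB core forms the DREAM complex, a repressor of cell cycle genes in resting cells. It was at 98.5, 102 and 112 CPM in WT 1, 2 and 3 and at 88.2, 97.6 and 84.8 CPM in FOXO3 KO 1, 2 and 3. No library of one group overlapped the other, and FOXO3 KO 2 lay just below WT 1. The log2 fold change was -0.21 (95% confidence interval -0.46 to 0.044, adjusted p = 0.839 by edgeR), and -0.27 without FOXO3 KO 2. The log2 difference was -0.18 between FOXO3 KO 1 and the mean of WT 1 and 2, and -0.41 between FOXO3 KO 3 and WT 3. Rbl2 overlaps Aktip on the opposite strand, and whether the counting used strand is not given in the sources used here. Aktip had no more than 1123 counts in a library, against 2488 to 4023 counts of Rbl2.

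Btg1 encodes an antiproliferative adaptor of the mRNA deadenylation machinery and is abundant in resting lymphocytes. It was at 296, 299 and 349 CPM in WT 1, 2 and 3 and at 267, 307 and 252 CPM in FOXO3 KO 1, 2 and 3. FOXO3 KO 1 and 3 lay below every WT library and FOXO3 KO 2 lay within the WT range. The log2 fold change was -0.19 (95% confidence interval -0.52 to 0.13), -0.28 without FOXO3 KO 2 and -0.10 without WT 3, and the adjusted p of edgeR was 0.844, 0.994 and 0.872. WT 3, the library with the most B cell and mast cell marker RNA, had the highest Btg1, Cdkn1b, Ccng2 and Rbl2. The part of B cells, mast cells and T cells in these levels was not tested.

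Among the GADD45 genes, stress sensors that bind PCNA and CDK1 and activate the kinase MAP3K4 upstream of p38 and JNK, Gadd45a had a lower mean in FOXO3 KO, but its groups overlapped. It was at 30.2, 39.2 and 17.1 CPM in WT 1, 2 and 3 and at 19.9, 23.0 and 12.1 CPM in FOXO3 KO 1, 2 and 3. WT 3 was low among the WT libraries, and within libraries of like Xist level each FOXO3 KO library was lower than its WT counterpart. These log2 differences were -0.80 for FOXO3 KO 1, -0.59 for FOXO3 KO 2 and -0.50 for FOXO3 KO 3. Over all libraries the log2 fold change was -0.65 (standard error 0.36, 95% confidence interval -1.53 to 0.23, unadjusted p = 0.121, adjusted p = 0.843 by edgeR's quasi-likelihood test). It was -0.85 without FOXO3 KO 2 (standard error 0.42). It depended on single libraries, being -0.36 without WT 2, -0.42 without FOXO3 KO 3 and -0.91 without WT 3. When the Xist level (high or near 0) was added to the model, it was -0.63, with an unadjusted p of 0.0044 by edgeR, where 10.3% of all genes tested had an unadjusted p under 0.05. Gadd45a overlaps E230016M11Rik on the opposite strand, which had no more than 96 counts in a library.

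Gadd45b and Gadd45g differed more between WT libraries than between genotypes. Gadd45b was at 78.7, 102 and 31.7 CPM in WT 1, 2 and 3 and at 64.7, 74.7 and 41.3 CPM in FOXO3 KO 1, 2 and 3. Gadd45g was at 13.3, 13.7 and 4.98 CPM in WT 1, 2 and 3 and at 14.0, 12.3 and 10.6 CPM in FOXO3 KO 1, 2 and 3. WT 3 was the lowest library for both, and the groups overlapped. Their log2 fold changes were -0.23 (95% confidence interval -1.30 to 0.83) and 0.21 (95% confidence interval -0.73 to 1.15), with adjusted p of 0.913 and 0.913 by edgeR. They were -0.42 (95% confidence interval -1.74 to 0.91) and 0.20 (95% confidence interval -1.01 to 1.42) when FOXO3 KO 2 was left out. Leaving out WT 2 made that of Gadd45b 0.13, and leaving out WT 3 made it -0.57 and that of Gadd45g -0.12. FOXO3 KO 3 was higher than WT 3 by 0.38 (log2) for Gadd45b and by 1.09 for Gadd45g, while FOXO3 KO 1 differed from the mean of WT 1 and 2 by -0.48 and 0.050. Intervals this wide would hold a change of over 1.5-fold in either direction for both genes. WT 3 also had the least RNA of the 12 immediate early genes, which summed to 1269, 1272 and 597 CPM in WT 1, 2 and 3 and to 1392, 1241 and 1008 CPM in FOXO3 KO 1, 2 and 3. The part of this in the GADD45 values was not tested.

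**Figure D2:**
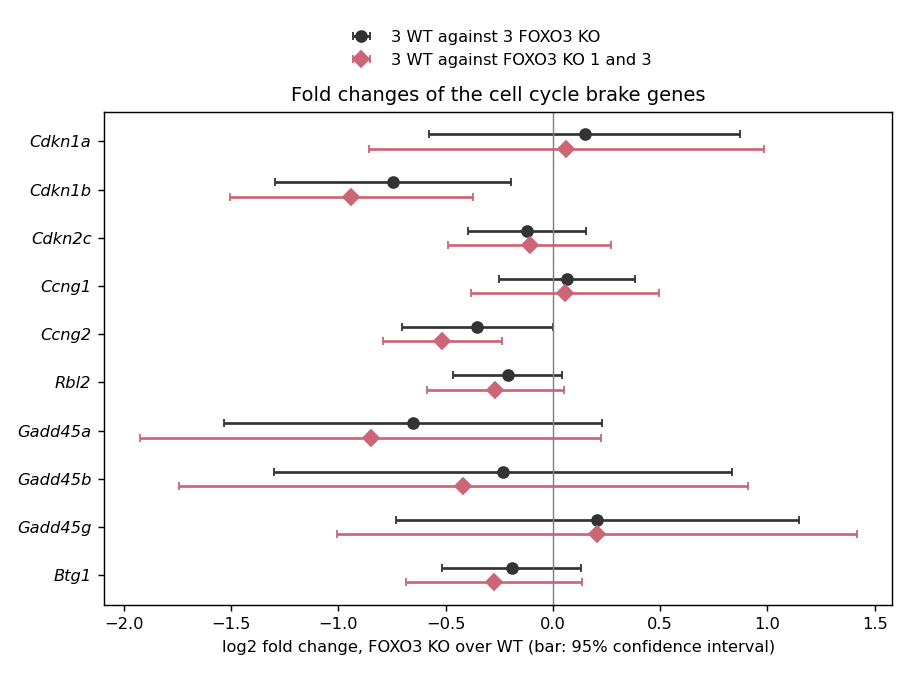
Log2 fold change of each gene (FOXO3 KO over WT) with its 95% confidence interval from edgeR, for all 6 libraries (black circles) and without FOXO3 KO 2 (red diamonds). Only the intervals of Cdkn1b stay below 0 in both, those of Ccng2 do so without FOXO3 KO 2, and the GADD45 genes have the widest intervals.

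Over the whole set, 0 of the 10 genes passed an adjusted p of 0.05 with a fold change over 1.5 by edgeR's quasi-likelihood test, with or without FOXO3 KO 2, and 0% of all genes tested did so in either fit. DESeq2, edgeR's likelihood ratio test and limma-voom also called 0 of the 10, where they called 0.794%, 0.698% and 0% of all genes. Without FOXO3 KO 2, DESeq2 and the likelihood ratio test called 0 of the 10, against 0.666% and 0.475% of all genes. With an unadjusted p under 0.05 and a lower level in FOXO3 KO there was 1 of the 10 (Cdkn1b), where 1.65% of all genes tested met the same rule. Without FOXO3 KO 2 there were 2 (Cdkn1b and Ccng2), against 1.26%, and without WT 3 there were 2 (Cdkn1b and Gadd45a), against 2.25%. Without both libraries there were 4 (Cdkn1b, Ccng2, Gadd45a and Gadd45b), against 3.39%, while 0 of the 10 and 0.0256% of all genes were called. The log2 fold change was below 0 for 7 of the 10 genes, against 51.2% of all genes, and for 7 without FOXO3 KO 2, against 52.4%. Without WT 3 it was below 0 for 10 of the 10, against 49.3%, Cdkn1a, Ccng1 and Gadd45g then being slightly below 0. Groups without overlap, lower in FOXO3 KO, were found for 3 of the 10 genes (Cdkn1b, Cdkn2c and Rbl2), against 5.36% of all genes. Without FOXO3 KO 2 there were 5, Ccng2 and Btg1 being added, against 9.3%. Without WT 3 there were 5, Gadd45a and Gadd45b being added to the 3, against 10.9%, and without both libraries there were 7, against 18.3%. The overlap count without both libraries was chosen after seeing the data. None of the 10 had every FOXO3 KO library above every WT library. The median log2 fold change was -0.20 over all 6 libraries and -0.27 without FOXO3 KO 2, beside -0.0073 and -0.016 for all genes tested. These shares describe 10 genes chosen with earlier results in view, and are not a test of the set.

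**Figure D3:**
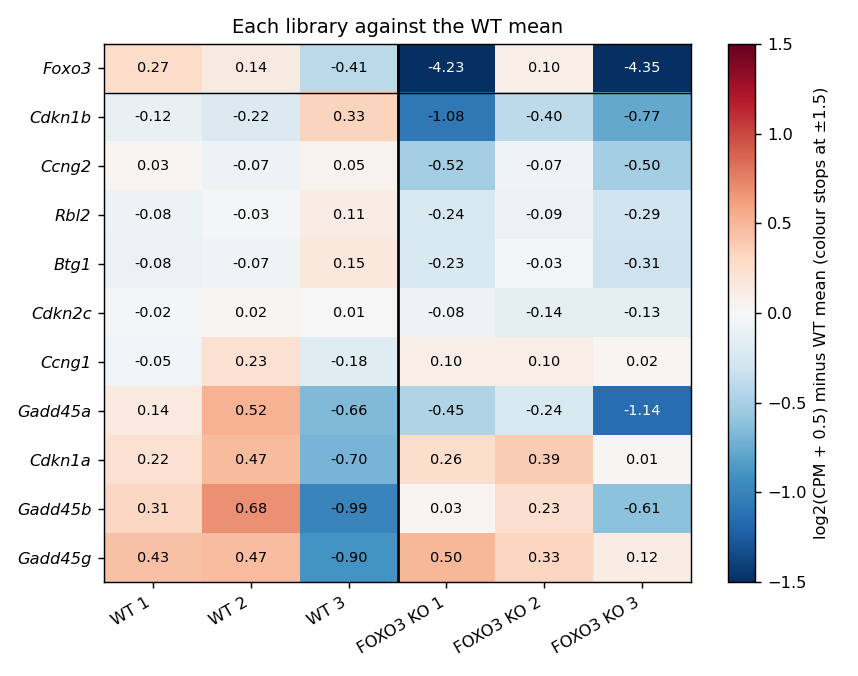
Difference of each library from the WT mean on the log2(CPM + 0.5) scale, for Foxo3 (top row) and the 10 genes, with the value printed in each cell and a black line between WT and FOXO3 KO libraries. Cdkn1b, Ccng2, Rbl2 and Btg1 are lowest in FOXO3 KO 1 and 3 and nearer 0 in FOXO3 KO 2 (-0.40, -0.07, -0.09 and -0.03), while Gadd45a, Cdkn1a, Gadd45b and Gadd45g are low in WT 3.

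By library, most of the genes fell into a pair of patterns, which were seen in the values and not tested. Cdkn1b, Ccng2, Rbl2 and Btg1 were highest in WT 3 and were lowest in FOXO3 KO 1 or 3. Cdkn1a, Ccng1, Gadd45b and Gadd45g were lowest in WT 3. Gadd45a and Cdkn2c followed neither pattern, both being highest in WT 2, with Gadd45a lowest in FOXO3 KO 3 and Cdkn2c in FOXO3 KO 2. In the library labelled FOXO3 KO 2, 7 of the 10 genes lay within the WT range and 3 lay below it (Cdkn1b, Cdkn2c and Rbl2). The share of all genes tested within that range is not given, so this count does not show a likeness to WT particular to the 10 genes. For Cdkn1b, Gadd45a, Gadd45b, Gadd45g and Cdkn1a, whose highest and lowest libraries differed by over 2-fold, the most similar patterns were sought among 9287 other genes with a mean of at least 10 CPM, by the root mean square difference of centred log2(CPM + 0.5). Closest to Cdkn1b were Txndc16 (0.0707) and Gm37917 (0.071), both without overlap between groups. Txndc16 was at 78.9, 79.7 and 112 CPM in WT 1, 2 and 3 and at 47.1, 71.7 and 52.9 CPM in FOXO3 KO 1, 2 and 3. Gadd45g was closest to Npc1 (0.0262) and Cpeb4 (0.0355), Cdkn1a to Aifm2 (0.0292) and Ncapg2 (0.0323), Gadd45b to Pdgfa (0.0932) and Gabarapl1 (0.0944), and Gadd45a to Hnmt (0.166) and Prdm1 (0.212). Gabarapl1 is also on the list of other FoxO targets. The groups overlapped for each of these 8 genes.

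Levels were compared between genes as CPM per kilobase of merged exons in GENCODE M21. Btg1 was the most abundant in WT (59.7 ± 5.61 CPM per kilobase, SD, n = 3), followed by Gadd45b (44.6 ± 22.5) and Ccng1 (40.1 ± 5.96). Neighbouring genes from Btg1 to Ccng1 overlapped in their WT ranges. Cdkn1b (26.9 ± 5.73) lay below Ccng1 without overlap. Cdkn1a (21.1 ± 7.97), Gadd45a (16.3 ± 6.31) and Rbl2 (13.8 ± 0.963) came next, each overlapping the gene before it. Ccng2 (12.3 ± 0.558) lay below Rbl2 without overlap. Gadd45g (9.08 ± 4.19), just apart from Ccng2 in its WT range, and Cdkn2c (4.86 ± 0.0669) were the lowest, and these 2 overlapped. In FOXO3 KO 1 and 3 the mean for Cdkn1b was 14.0 CPM per kilobase, beside 22.0 for Cdkn1a. In WT the order of these 2 genes rested on WT 3 (33.5 for Cdkn1b and 12.2 for Cdkn1a), since in WT 2 Cdkn1b was at 22.8 and Cdkn1a at 27.7. With the median length of protein-coding transcripts in place of merged exons, a choice made after seeing the data, Btg1 and Gadd45b stayed the highest and Gadd45g and Cdkn2c the lowest, while Ccng1 moved from place 3 to place 6.

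The other FoxO genes were measured beside Foxo3. Foxo4 was at 35.3, 36.2 and 32.0 CPM in WT 1, 2 and 3 and at 24.9, 30.2 and 23.4 CPM in FOXO3 KO 1, 2 and 3, without overlap between groups. Its log2 fold change was -0.40 (standard error 0.13, unadjusted p = 0.02, adjusted p = 0.765 by edgeR's quasi-likelihood test), and -0.51 without FOXO3 KO 2. Foxo1 was at 96.0 CPM in WT 3 and at 25.9 to 39.7 CPM in the other libraries, and its log2 fold change of -0.76 became -0.073 without WT 3. Foxo6 was at no more than 0.182 CPM. For Foxo3 itself the log2 fold change was -1.40 (standard error 1.22) over all libraries and -4.46 (standard error 0.29) without FOXO3 KO 2, and the adjusted p of edgeR was 0.859 and 0.105.

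Relatives of the 10 genes gave few differences. Of 6 other CDK inhibitors and pocket proteins, 0 had an unadjusted p under 0.05. Cdkn2a, the p16 and p19 locus, was at 6.37, 2.86 and 8.22 CPM in WT 1, 2 and 3 and at 1.17 and 0.929 CPM in FOXO3 KO 1 and 3, but at 12.5 CPM in FOXO3 KO 2, the highest of all libraries. Its log2 fold change was -0.26 over all libraries and -2.47 without FOXO3 KO 2 (unadjusted p = 0.0057 by edgeR), and it is among genes the study picked from these libraries. The retinoblastoma gene Rb1 was at 109 to 113 CPM in WT and at 102 to 115 CPM in FOXO3 KO. Of the other BTG and TOB genes, 4 of 5 could be tested, and 0 had an unadjusted p under 0.05. Btg2 had a log2 fold change of -0.45 with WT 3 and -0.062 without it, and Btg4 had no counts. Among 10 partners of Rbl2 in the DREAM complex, 0 had an unadjusted p under 0.05. Lin9 (log2 fold change -0.17) and Lin52 (-0.24) were lower in FOXO3 KO without overlap, as were 5.36% of all genes tested. Of 6 signalling partners of GADD45 proteins, 1 had an unadjusted p under 0.05 by edgeR, the kinase Map2k7. Its log2 fold change was -0.31 (standard error 0.096), and -0.36 without FOXO3 KO 2. Over all genes tested, 1.65% were lower and 4.04% higher at that p.

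Genes that drive the cycle were compared with these brakes. In a list of 18 proliferation genes, 8 had an unadjusted p under 0.05 by edgeR with a higher level in FOXO3 KO, against 4.04% of all genes tested, and 0 with a lower level. The adjusted p of Cdk1, Ccnb1 and Ccna2 was 0.714 each by edgeR. Cdk1 and Ccnb1 are among genes the study picked from these libraries. Cdk1, the mitotic kinase, was at 5.43, 5.12 and 4.61 CPM in WT 1, 2 and 3 and at 8.79, 11.5 and 10.1 CPM in FOXO3 KO 1, 2 and 3. Ccnb1, its cyclin, was at 4.40, 4.31 and 3.30 CPM in WT 1, 2 and 3 and at 7.94, 8.17 and 8.54 CPM in FOXO3 KO 1, 2 and 3. Their log2 fold changes were 1.004 (standard error 0.18) and 1.04 (standard error 0.19), and that of Ccna2, the cyclin of S phase and G2, was 0.80 (standard error 0.22). Groups without overlap, higher in FOXO3 KO, were found for 9 of the 18, against 7% of all genes. FOXO3 KO 2 was the FOXO3 KO library farthest from WT for Cdk1. It was the nearest for Bub1 (5.07, 3.58 and 5.97 CPM in FOXO3 KO 1, 2 and 3), Ccnb2 and Birc5, named after their values were seen. For Ccna2 and Ccnb1, and for Mki67 and Top2a, likewise named after their values were seen, FOXO3 KO 1 was the nearest. FOXO3 KO 2 then lay between FOXO3 KO 1 and 3. The median log2 fold change of the list was 0.49, and 0.59 without WT 3. Without FOXO3 KO 2 it was 0.53, and 8 of the 18 were higher with an unadjusted p under 0.05, against 3.05% of all genes. Of the replication genes, also named after their values were seen, Mcm3 was higher without overlap (log2 fold change 0.18), and Mcm2, Mcm5 and Mcm6 had log2 fold changes of 0.032, -0.043 and -0.090. These became 0.37, 0.31 and 0.10 without WT 3. Of 12 G1 cyclins, CDKs and E2F activators, 0 had an unadjusted p under 0.05. Cdk6 (log2 fold change 0.52) and E2f3 (0.32) were higher without overlap, as were 7% of all genes. Of 6 measured genes of SKP2-dependent p27 degradation, 1 was higher with an unadjusted p under 0.05 (4.04% of all genes), Cks1b. Its log2 fold change was 0.52 (standard error 0.17), and Skp2 had a log2 fold change of 0.15. Marker RNA of other cell types also differed between the libraries. The 10 mesothelial and fibroblast markers summed to 44.7 to 80.4 CPM in WT and to 103, 517 and 183 CPM in FOXO3 KO 1, 2 and 3. FOXO3 KO 2, whose Foxo3 was not reduced, was thus the highest. The log2 fold change was above 0 for 9 of 9 tested genes, where 51.2% of all genes were below 0. The 5 red blood cell markers summed to 9.63 to 26.95 CPM in WT, to 117 and 182 CPM in FOXO3 KO 1 and 3 and to 9.23 CPM in FOXO3 KO 2. The 12 neutrophil markers summed to 140 to 231 CPM in WT and to 513, 238 and 433 CPM in FOXO3 KO 1, 2 and 3, FOXO3 KO 2 being nearest to WT. The log2 fold change was above 0 for 9 of 9 tested genes, and 5 were higher without overlap, against 7% of all genes. S100a9 alone was at 164, 6.93 and 117 CPM in FOXO3 KO 1, 2 and 3 and at no more than 5.61 CPM in WT. The groups of Retnlg, Mmp8, Mmp9 and Ltf overlapped. Of the markers of these cell types, S100a8, S100a9, Cxcr2, Hba-a1, Hba-a2, Alas2, Wt1, Krt19, Col1a1 and Col1a2 are also among genes the study picked from these libraries. The part of these cell types in the proliferation genes was not tested.

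**Figure D4:**
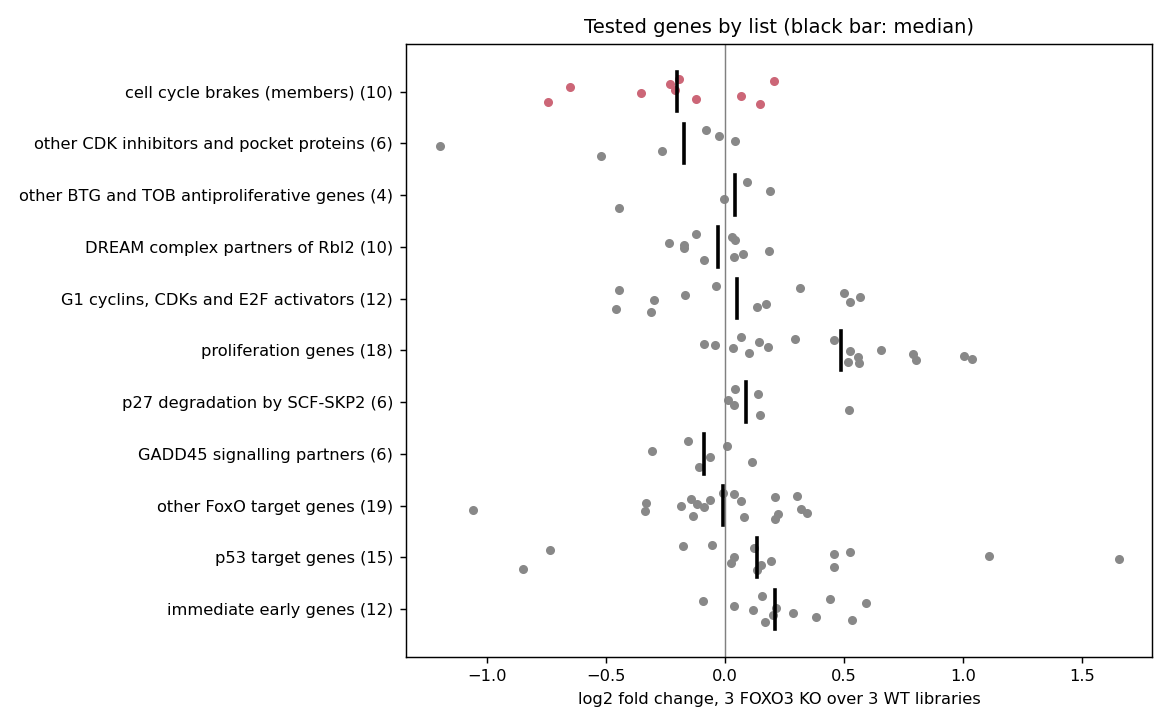
Log2 fold change (3 FOXO3 KO over 3 WT libraries) of each tested gene among the 10 brakes and in the pathway lists other than the FoxO genes (marker lists are not plotted), 1 point a gene, with the number of genes in brackets and a black bar at the median. The 10 brakes (red) have a median of -0.20 and the proliferation genes 0.49, while the medians of the other lists plotted lie between -0.17 and 0.21.

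FoxO targets outside the cell cycle did not share 1 direction. Of 19 tested, 2 were higher (Sod2, mitochondrial superoxide dismutase, log2 fold change 0.32, and the pseudokinase Trib1, 0.30) and 1 was lower (Sesn1, sestrin 1, an inhibitor of mTORC1 signalling, -0.34) with an unadjusted p under 0.05 by edgeR, against 4.04% higher and 1.65% lower of all genes tested. With FOXO3 KO 2 left out, Sesn1 had a log2 fold change of -0.44, and 0 genes of the list were higher and 2 lower at that p, against 3.05% and 1.26%. Sesn1 was at 127, 119 and 143 CPM in WT 1, 2 and 3 and at 93.3, 117 and 97.6 CPM in FOXO3 KO 1, 2 and 3, so that FOXO3 KO 2 was again the nearest to WT. The median of the list was -0.011. Of 15 p53 target genes, to which Cdkn1a and Ccng1 are related by their control, 1 had an unadjusted p under 0.05 and a lower level (1.65% of all genes), Trp53inp1 (log2 fold change -0.85, and -0.49 without WT 3), and the median was 0.14. For the immediate early genes the median was 0.21, and 0.040 without WT 3. Over all libraries 1 of 12 (Ier3, log2 fold change 0.59) was higher with an unadjusted p under 0.05 (4.04% of all genes).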

How the data were processed

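RNA-seq libraries (paired-end, 76 bp) were made from elicited peritoneal cells, 3 WT and 3 FOXO3 KO. The authors deposited estimated counts per gene symbol, without normalization. The submitters' processing notes name STAR 2.6.1d, kallisto 0.46.0, DESeq2 and mm10, with no role or order. These were rounded to whole numbers, which 81.4% of them already were within 0.01. CPM was computed from them. Genes were tested over the whole table with edgeR 4.0.16 in R 4.3.3 (filterByExpr, TMM, glmQLFit and glmQLFTest, Benjamini-Hochberg adjustment). Genes were called at an adjusted p under 0.05 and a fold change over 1.5, the paper's thresholds. At these the paper reports genes changed in both directions. The quasi-likelihood test called 0 with or without FOXO3 KO 2, while DESeq2 called 0.794% of all genes with it and 0.666% without it. The Foxo3 fold change that the paper lists is close to that without FOXO3 KO 2 (log2 -4.46) and not to that of all 6 libraries (-1.40). Which libraries and test gave the paper's calls was not tested, so the counts are not like for like. A standard error was taken as the absolute log2 fold change divided by the root of the F statistic. Alternatives used DESeq2 1.42.0, limma 3.58.1, other factors and filters, the replicate number as a block, a covariate for the split by Xist and libraries left out. The fits were tested on simulated data. Coordinates and lengths are from GENCODE M21 (GRCm38, the build of mm10), and promoter windows from RefSeq. No pair of libraries agreed within sampling noise. The labels do not say which mouse gave which library, so p-values measure the spread between libraries, which may be technical. Members and lists were chosen with earlier results of these data known. Genes named were the members, the FoxO genes, up to 3 of each list by unadjusted p and relatives of members.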

Additional observations from a re-analysis of the deposited data

How the results depend on the processing

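The number of the 10 genes called was 0 in each alternative run, and the median log2 fold change kept its sign, between -0.28 and -0.12. By edgeR's quasi-likelihood test 0% of all genes were called over all 6 libraries, without FOXO3 KO 2 or without WT 3. The share called is not given for the other factors and filters, the replicate block, the covariate or the other libraries left out singly. The 0 is therefore not read as a result about the 10 genes. With an unadjusted p under 0.05 there was 1 gene in the fit reported and 2 with DESeq2, limma-voom, the covariate for the split by Xist, and the libraries without FOXO3 KO 2 under DESeq2 or the likelihood ratio test, 3 without FOXO3 KO 2 with that covariate, and 4 without FOXO3 KO 2 and WT 3. With that covariate and all 6 libraries, 10.3% of all genes tested had an unadjusted p under 0.05 by edgeR. The share at that p is not given for DESeq2, limma-voom, the likelihood ratio test, the replicate block or the covariate without FOXO3 KO 2. The counts of those runs are therefore not read as a result about the 10 genes. Leaving out 1 library at a time gave 1 to 2 of the 10 genes with an unadjusted p under 0.05 by edgeR. The share of all genes at that p is not given without WT 1, WT 2, FOXO3 KO 1 or FOXO3 KO 3. This range is therefore not read as a result about the 10 genes either. With 1 library left out the median lay between -0.27 and -0.12, and 3 to 5 genes had groups that do not overlap in either direction. The counts of 5 came without WT 2, WT 3 or FOXO3 KO 2, and without both WT 3 and FOXO3 KO 2 it was 7, an alternative chosen after seeing the data. Of all genes tested, 5.36% were lower and 7% higher without overlap over all 6 libraries. The lower share was 10.9% without WT 3, 9.3% without FOXO3 KO 2 and 18.3% without both. Without WT 1, WT 2, FOXO3 KO 1 or FOXO3 KO 3 it is not given. The Foxo3 log2 fold change was between -4.46 and -0.87 with 1 library left out. Past an adjusted p of 0.05 it was -4.64 without FOXO3 KO 2 and WT 3, and without FOXO3 KO 2 it was -4.46 by DESeq2, -4.46 by the likelihood ratio test and -4.35 with the covariate. Directions turned for Gadd45b without WT 2 (0.13), and without WT 3 for Cdkn1a (-0.12), Ccng1 (-0.012) and Gadd45g (-0.12), also without WT 3 and FOXO3 KO 2 (-0.21, -0.032 and -0.14). With 1 library or the last 2 left out, Cdkn1a lay between -0.21 and 0.40, Ccng1 between -0.032 and 0.19, Gadd45a between -1.12 and -0.36, Gadd45b between -0.77 and 0.13 and Gadd45g between -0.14 and 0.43. The cause was not tested. Same-numbered libraries shared no pairing in the labels, and their deviations from the group means correlated at 0.339, -0.0612 and 0.567 across genes, so the numbers were not taken as pairs; with the replicate block, 2 genes (Cdkn1b and Gadd45a) had an unadjusted p under 0.05. Gadd45g in WT 3, with 178 counts, was the lowest value of the 10 genes.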
